A study of Homo sapiens with 15 samples.

Results

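P493-6 is a human B cell line in which tetracycline turns off an introduced MYC gene, and the libraries described here compare cells with MYC on and cells with MYC turned off for 24 h. The members are 3 libraries labelled with 0.1 µg/ml tetracycline, which was dissolved in water, and 3 control libraries, chosen by these labels as 6 of the 15 libraries of the series. The series also holds 3 P493-6 libraries with 6 µM MYCi975, a small molecule made to inhibit MYC, and 6 libraries of PC3 prostate cancer cells that were not used. All 6 libraries come from 1 cell line grown in RPMI with 10% fetal bovine serum, which the labels describe as Burkitt lymphoma with overexpressed MYC. In the field P493-6 is known as a B cell line immortalised with Epstein-Barr virus that carries the conditional MYC gene. The control is labelled as untreated, and the protocol states that control cells received DMSO. MYC loss, the antibiotic itself and the difference in solvent therefore cannot be told apart in this comparison. Whether the 3 libraries within a group stem from separate cultures is not stated, and p-values then measure only the spread among these samples, which may be technical.

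MYC is a transcription factor that pairs with MAX and binds E-box sequences in the promoters of many genes. It is known for raising the genes that build ribosomes, nucleotides and mitochondria, and it drives growth and division in activated B cells. MXD proteins, MNT and MGA also pair with MAX and compete with MYC for the same DNA. In B cells high MYC has been reported to go with lower expression of genes for the B cell receptor, antigen presentation and interferon signalling.

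Expression was given in CPM (1 CPM is 1 read in 1000000), so every value is a share of a library and RNA per cell was not measured. Depth ran from 9774101 to 12212555 reads in the control and from 8162582 to 9895173 reads with tetracycline. The first principal component of the 6 libraries held 94.0% of the variance and separated the groups. Changes are given on the log2(CPM + 1) scale as tetracycline minus control, with standard errors from limma. This scale understates the change of genes at a few CPM. A gene rose or fell where limma gave a Benjamini-Hochberg adjusted p below 0.05 over 13703 genes. In all, 4957 genes (36.2%) rose and 5745 genes (41.9%) fell, 78.1% together, and 78.4% of genes had groups whose values lay fully apart. At least 2-fold changes were met by 1849 rising genes (13.5%) and 2219 falling genes (16.2%), and at least 8-fold changes by 94 and 69 genes. A gene is listed only where 2 or more libraries exceed 1 CPM. Of all genes 1049 met this only through the tetracycline libraries and 528 only through the control libraries, which favours the direction of the group that listed them. The edgeR quasi-likelihood test with TMM scaling on whole reads recovered from the CPM called 10726 genes (78.3%), of which 5380 rose and 5346 fell. Both tools called 10301 genes in the same direction and 0 in opposite directions. The median change of all genes was -0.05, and 0.02 with TMM scaling. With this many genes called, the count for a group of genes has to be read against these shares. So does a statement that the groups of a named gene lay apart, since named genes were mostly chosen for large changes. The plot of change by control level shows the genes of the MYC target list at the lower right and those of the interferon list at the upper left.

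**Figure D1:**
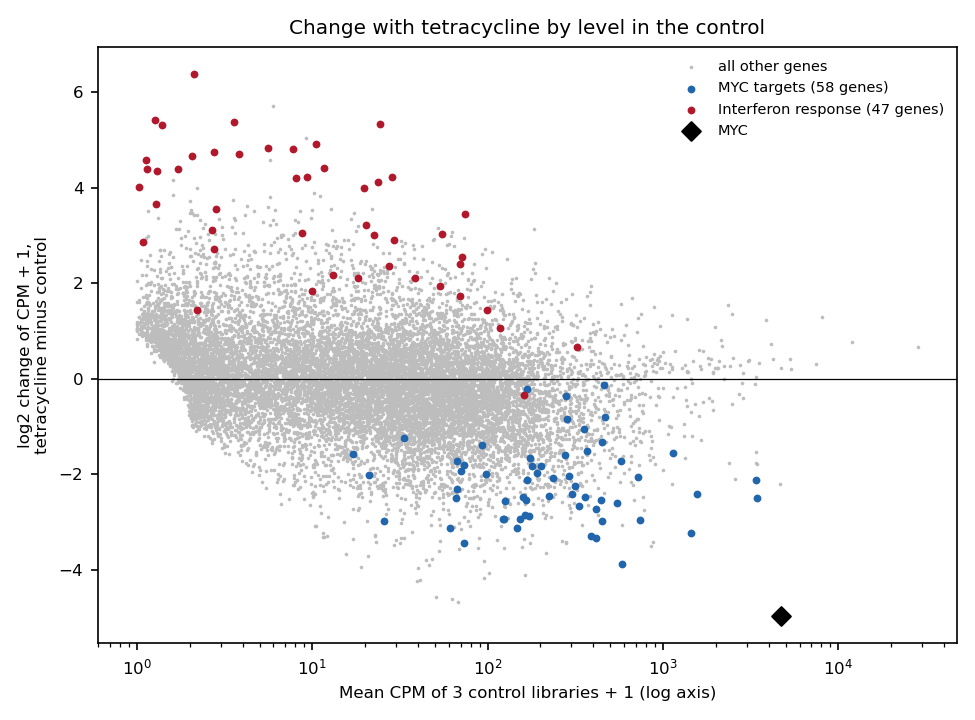
Each point is 1 of 13703 genes, with the mean CPM of the 3 control libraries plus 1 on the x axis (log scale) and the log2 change of CPM + 1 on the y axis. All 58 MYC target genes (blue) lie below 0, 46 of 47 interferon genes (red) lie above it, and MYC (black diamond) has the lowest value of the plot.

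MYC (ENSG00000136997) was measured at 4692, 4701 and 4791 CPM in the 3 control libraries and at 152, 145 and 149.8 CPM in the 3 tetracycline libraries. Every tetracycline library lay far below every control library, as their labels imply. The fall was 31.7-fold, a log2 change of -4.98 (SE 0.036) with an adjusted p of 2.76e-49 (limma, which pools the spread over genes), and edgeR gave -4.91. It was the lowest change of all 13703 genes, and the count does not separate the introduced MYC gene from the cell's own. MAX, the partner MYC needs to bind DNA, was at 79.1, 81.96 and 83.6 CPM in the control and 79.4, 88.2 and 77.3 CPM with tetracycline, and the groups overlapped (adjusted p = 0.997, limma).

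The competitors of MYC for MAX moved in both directions. Of the 10 measured genes of the MYC network list, 3 rose (30%) and 5 fell (50%), near the 36.2% and 41.9% of all genes. MXD1 was at 2.42, 2.62 and 1.94 CPM in the control and 8.15, 9.19 and 10.3 CPM with tetracycline, a log2 change of 1.62 (SE 0.16). MXD3 went from 4.22 to 13.02 CPM on average (log2 change 1.43, SE 0.14) and MXD4 from 41.7 to 90.6 CPM (log2 change 1.10, SE 0.063). These 3 MXD genes, which encode repressors of E-box genes, rose in every tetracycline library above every control library. MXI1, the fourth member of the MXD family measured, fell instead, from 49.9, 49.3 and 45.4 CPM to 11.2, 12.5 and 13.3 CPM (log2 change -1.88, SE 0.090). MNT changed by -0.58 log2 units (SE 0.067) and MGA by -0.54 log2 units (SE 0.044), both lower with tetracycline. Of the parallel factors, MLX fell by a smaller amount (log2 change -0.32, SE 0.064). MLXIP was at 83.4, 82.2 and 79.5 CPM in the control and 79.9, 84.3 and 87.4 CPM with tetracycline (adjusted p = 0.561, limma), while edgeR with TMM scaling called it higher by 0.12 log2 units.

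The list of 58 long-described MYC targets holds genes of nucleolar assembly, nucleotide and polyamine synthesis, glycolysis and mitochondrial chaperones, and every one of them fell. The median change was -2.27, against -0.05 for all genes, and 53 of the 58 fell at least 2-fold. The summed CPM of the list went from between 23959 and 24717 in the control to between 5741 and 5842 with tetracycline. For all 58 genes the tetracycline libraries lay below the control libraries. The list is made of genes known to answer to MYC and was chosen with earlier results of these data known. Its direction is therefore a description.

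The promoters of 3 of these genes are shown, because they hold the E-box CACGTG that MYC and MAX bind and fell the most among list members with a match that could be printed. Each runs from 250 bases before to 10 bases after the gene's RefSeq start (GRCh38.p14), 5′ to 3′ on the gene's strand, with the E-box in capitals. RRP9 (chr3:51941895-51942154, minus strand) encodes a protein of the small nucleolar ribonucleoprotein that processes ribosomal RNA. SRM (chr1:11060009-11060268, minus strand) encodes spermidine synthase. HSPD1 (chr2:197500265-197500524, minus strand) encodes the mitochondrial chaperonin HSP60.
RRP9: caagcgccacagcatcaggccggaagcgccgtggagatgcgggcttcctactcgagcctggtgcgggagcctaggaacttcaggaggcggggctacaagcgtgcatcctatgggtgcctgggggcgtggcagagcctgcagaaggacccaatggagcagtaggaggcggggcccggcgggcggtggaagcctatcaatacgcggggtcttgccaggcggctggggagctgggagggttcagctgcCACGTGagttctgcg
SRM: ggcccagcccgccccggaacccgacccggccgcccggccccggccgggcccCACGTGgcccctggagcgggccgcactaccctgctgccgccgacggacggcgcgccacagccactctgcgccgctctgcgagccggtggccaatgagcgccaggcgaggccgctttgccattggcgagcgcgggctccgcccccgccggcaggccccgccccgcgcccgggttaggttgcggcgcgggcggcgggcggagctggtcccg
HSPD1: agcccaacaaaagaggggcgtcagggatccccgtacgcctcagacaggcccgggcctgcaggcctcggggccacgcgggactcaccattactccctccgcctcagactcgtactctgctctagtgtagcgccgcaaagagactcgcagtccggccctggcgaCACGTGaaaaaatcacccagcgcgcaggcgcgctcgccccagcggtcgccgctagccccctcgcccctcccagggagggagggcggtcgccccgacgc
The E-box began 5 bases before the start in RRP9, 199 bases before it in SRM and 88 bases before it in HSPD1. RRP9 was at 68.6, 71.8 and 76.1 CPM in the control and 5.28, 6.37 and 5.56 CPM with tetracycline. SRM was at 385, 403 and 375 CPM in the control and 34.1, 44.2 and 38.2 CPM with tetracycline. HSPD1 was at 1429, 1424 and 1487 CPM in the control and 157, 147 and 151 CPM with tetracycline. In each of these genes every control library was several times higher than every tetracycline library, with log2 changes of -3.44 (SE 0.096), -3.29 (SE 0.065) and -3.24 (SE 0.039). MYBBP1A, a nucleolar protein that binds MYB, also holds an E-box, 28 bases past the start, and changed by -3.34 log2 units.

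The E-box was more frequent in promoters of genes that fell. No test was run on these shares, since the classes come from the same comparison. In the window from 250 bases before to 50 after the start, CACGTG was found in 271 of 1740 promoters (15.6%) of genes that fell at least 2-fold and in 90 of 1322 (6.81%) of genes that rose at least 2-fold. The exact (Clopper-Pearson) 95% intervals, which cover sampling of promoters alone, were 13.9 to 17.4% and 5.51 to 8.30%. Genes that fell by less held it in 11.3%, genes not called in 9.25% and genes that rose by less in 8.76%. In all 9843 tested genes with a RefSeq promoter the share was 10.5%, and over the whole RefSeq table of 27305 promoters it was 7.43%. In the MYC target list 20 of 44 promoters (45.5%) held the E-box, and in the nucleolar assembly list 21 of 55 (38.2%). CACGTG reads the same on both strands, and a match is a description of the letters in this window, not a bound site. The median GC content of promoters also differed, from 66.3% in genes that fell at least 2-fold to 63.0% in genes that rose at least 2-fold, and its part in the motif shares was not tested.

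**Figure D2:**
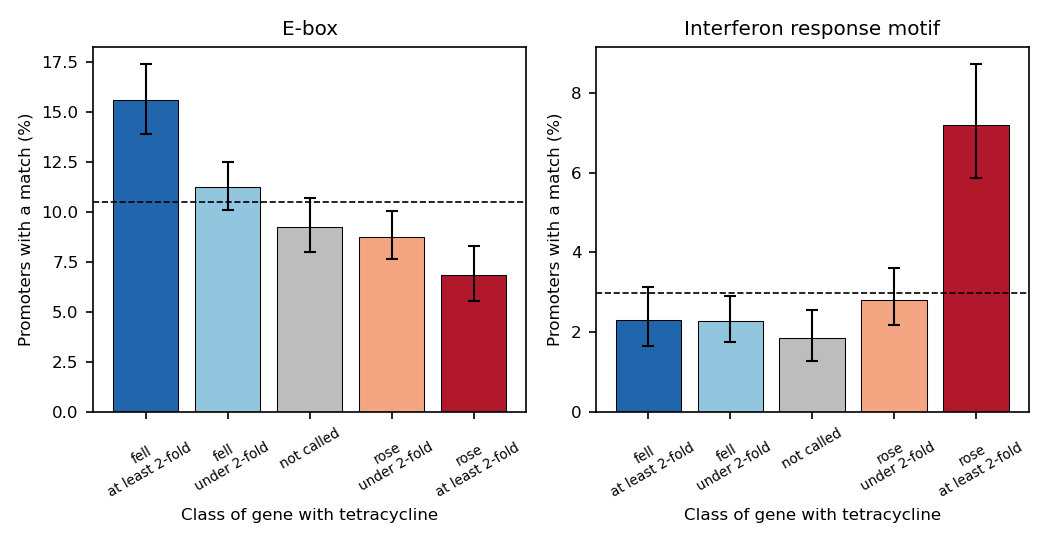
Bars give the percent of promoters with a match to the E-box (left) and to an interferon response motif (right) in 5 classes of genes by their change with tetracycline, with exact 95% intervals and a dashed line at the share in all 9843 promoters. The E-box share steps down from 15.6% to 6.81% from left to right, and the interferon motif stands at 7.19% in genes that rose at least 2-fold.

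The genes with the largest falls had varied roles. The 15 largest falls named by rule were in MYC, DDN, CAMKV, HPDL, FJX1, NPW, MTSS1L, CD3EAP, PODXL2, MEX3A, RP11-132A1.4, ANKRD13B, FKBP4, JAG2 and B4GALT2. DDN, which encodes the dendritic protein dendrin, was at 66.01, 67.96 and 64.97 CPM in the control and 1.72, 1.59 and 1.52 CPM with tetracycline, a log2 change of -4.69 (SE 0.12). CAMKV, a kinase-like protein, was at 65.3, 60.02 and 60.2 CPM in the control and 0.918, 1.47 and 2.53 CPM with tetracycline (log2 change -4.62, SE 0.15). Both were close to 1 or 2 CPM in every tetracycline library, near the level where a few reads decide the value. CD3EAP, a subunit of RNA polymerase I, was at 160.3, 172 and 155 CPM in the control and 6.89, 9.80 and 8.99 CPM with tetracycline (log2 change -4.11, SE 0.088). FKBP4, a cochaperone of HSP90, was at 578, 594 and 574 CPM in the control and 40.5, 37.5 and 36.7 CPM with tetracycline (log2 change -3.89, SE 0.048). JAG2, a ligand of NOTCH receptors, was at 103, 92.8 and 88.9 CPM in the control and 5.28, 5.76 and 6.37 CPM with tetracycline (log2 change -3.82, SE 0.092). The rule took only genes whose groups lay apart, as 78.4% of all genes did, so their separation was set by the choice.

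The machinery that makes ribosomes fell as a whole, while the protein parts of the cytosolic ribosome did not. All 66 nucleolar assembly genes fell, with a median change of -2.05, 62 of them at least 2-fold, where 41.9% of all genes fell. The list shares 21 genes with the MYC target list. NOP16, a nucleolar protein of the large subunit pathway, was at 151, 139.9 and 148 CPM in the control and 15.04, 16.2 and 16.2 CPM with tetracycline (log2 change -3.13, SE 0.068). NOLC1, a scaffold of the nucleolus, was at 786, 751 and 675 CPM in the control and 85.7, 101 and 94.9 CPM with tetracycline (log2 change -2.96, SE 0.056). BOP1, MRTO4 and EBNA1BP2, which act in large subunit assembly, changed by -2.94, -2.87 and -2.91 log2 units. Among these 5 genes the control values exceeded the tetracycline values in every library.

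Of 36 RNA polymerase I and III genes, 33 fell and 1 rose, with a median of -0.88. POLR1B, the second largest subunit of polymerase I, was at 173, 161 and 161 CPM in the control and 25.8, 27.7 and 28.9 CPM with tetracycline (log2 change -2.55, SE 0.062). The pair of alternative polymerase III subunits POLR3G and POLR3GL moved in opposite directions. POLR3G, the form known from dividing and stem cells, went from 47.98, 45.7 and 45.6 CPM to 5.17, 6.003 and 5.36 CPM (log2 change -2.87, SE 0.10). POLR3GL, the form of differentiated cells, went from 22.3, 22.1 and 23.6 CPM to 42.5, 47.04 and 52.05 CPM (log2 change 1.02, SE 0.083), and was the 1 gene of the list that rose.

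Of 76 cytosolic ribosomal protein genes, 59 rose and 8 fell, with a median of 0.22 and 0 genes changed by 2-fold. Their summed CPM was 92189 to 95863 in the control and 107740.00 to 115672 with tetracycline. RPS27 was at 471, 450.2 and 469 CPM in the control and 939, 829.5 and 842 CPM with tetracycline (log2 change 0.91, SE 0.041). RPLP1 was at 1627, 1690.5 and 1763 CPM in the control and 2659, 2504 and 2443 CPM with tetracycline (log2 change 0.58, SE 0.036), both higher in each tetracycline library. RPL17 changed by -0.48 log2 units and RPL14 and RPS7 by -0.19 and -0.19 log2 units. RPL5 and RPL35 were called lower, with log2 changes of -0.11 and -0.10, and neither call held with TMM scaling, which gave -0.03 and -0.02. The RPL35 call was also lost without the second or the third control library or the third tetracycline library, at -0.09, -0.08 and -0.06. Ribosomal protein genes have many near-identical copies in the genome, so reads may have been split between copies and these values are uncertain. The mitochondrial ribosome, whose proteins are encoded in the nucleus, went the other way: 74 of 76 genes fell and 0 rose, with a median of -1.08. MRPL4 was at 189, 197 and 189 CPM in the control and 31.1, 33.9 and 33.5 CPM with tetracycline (log2 change -2.51, SE 0.058).

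Genes that load ribosomes and amino acids fell as well. Of 48 translation factors 39 fell and 8 rose (median -0.67). EIF3B, a subunit of initiation factor eIF3, went from 600.4 to 152 CPM (log2 change -1.98, SE 0.041) and EIF4EBP1, a repressor of cap binding, from 105 to 19.98 CPM (log2 change -2.33, SE 0.069). Its relative EIF4EBP2 rose by 0.37 log2 units, as did EIF3F and EIF3H by 0.48 and 0.36 log2 units. Of 22 aminoacyl-tRNA synthetase genes 20 fell (median -1.22), with IARS at 686, 666 and 664 CPM in the control and 148, 136 and 143 CPM with tetracycline (log2 change -2.23, SE 0.041). The exceptions were QARS, which rose by 0.14 log2 units, and WARS, which is also known as an interferon-induced gene and rose by 0.39 log2 units. Of 19 measured host genes of small nucleolar RNAs 13 fell and 2 rose. Among them SNHG16 went from 141 to 24.4 CPM (log2 change -2.48, SE 0.068) and DANCR from 163 to 25.4 CPM (log2 change -2.64, SE 0.063), while ZFAS1 rose by 0.17 log2 units, a call lost without the third control library (0.10) and without the first tetracycline library (0.13).

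**Figure D3:**
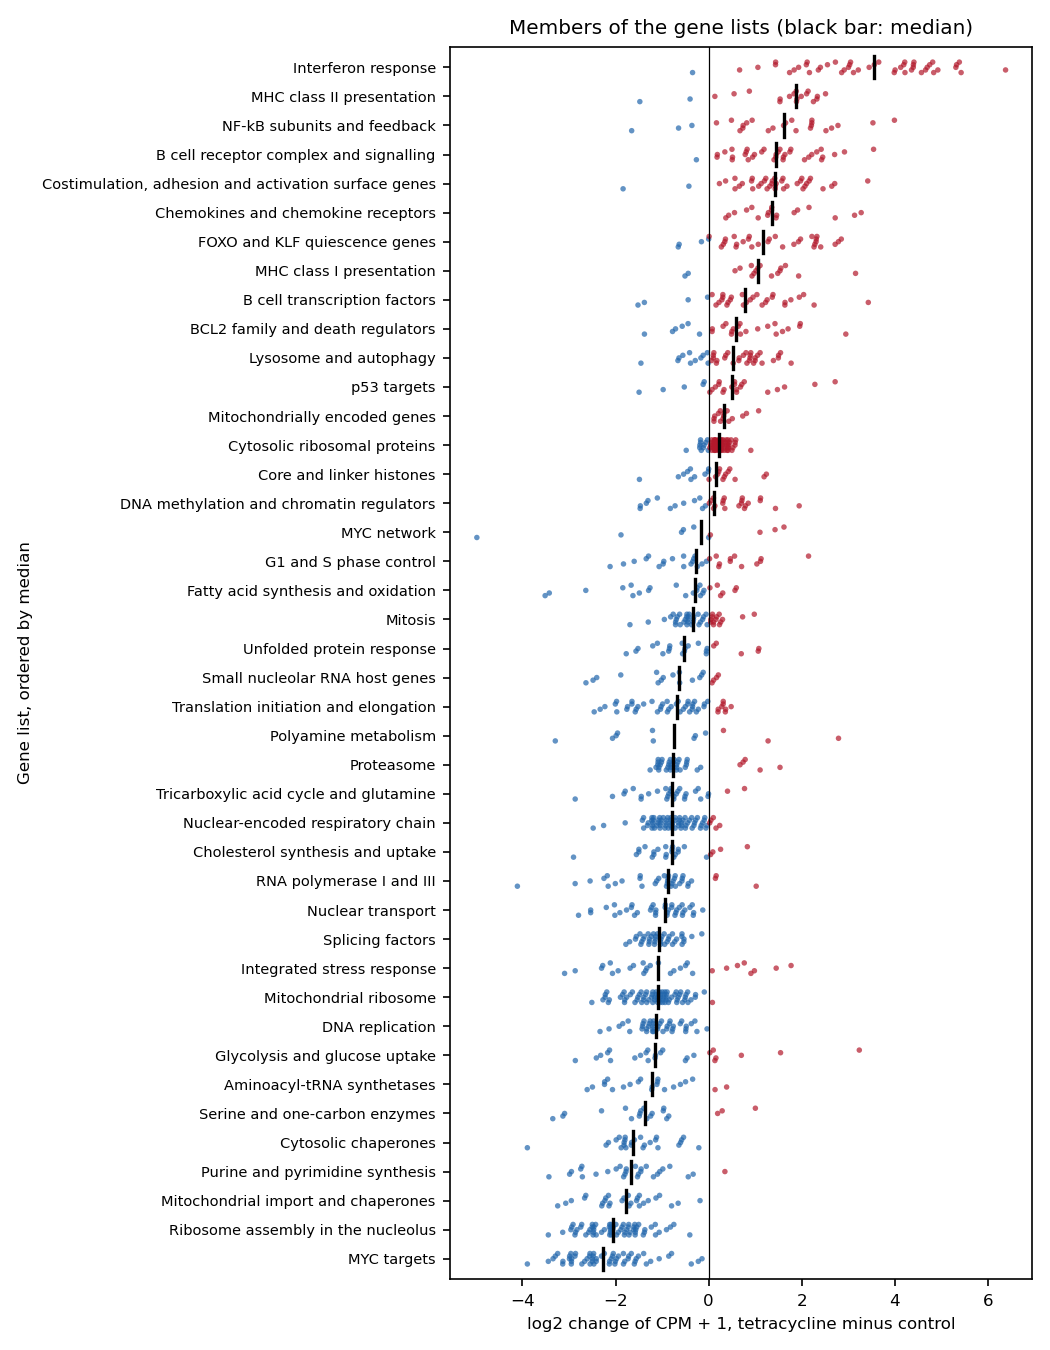
Each point is a measured member of a gene list, placed by its log2 change of CPM + 1 with tetracycline, with blue below 0 and red above, and lists are ordered by their median (black bar). The medians run from -2.27 in MYC targets to 3.56 in the interferon list.

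Nucleotide, one-carbon and polyamine synthesis fell together. Of 28 purine and pyrimidine synthesis genes 27 fell, 23 of them at least 2-fold (median -1.67). NME1, a nucleoside diphosphate kinase, was at 269.9, 274 and 289 CPM in the control and 24.6, 24.4 and 25.6 CPM with tetracycline (log2 change -3.43, SE 0.056). PAICS and PPAT, enzymes of the purine ring, went from 446 to 55.4 CPM (log2 change -2.99, SE 0.049) and from 121 to 14.8 CPM (log2 change -2.95, SE 0.077). CAD, which starts pyrimidine synthesis, was at 409, 405 and 419 CPM in the control and 61.1, 62.1 and 61.04 CPM with tetracycline (log2 change -2.72, SE 0.045). TK1, the thymidine kinase of the salvage route, was the exception and rose from 49.4, 59.8 and 55.5 CPM to 74.03, 63.8 and 72.5 CPM (log2 change 0.35, SE 0.069). Of 20 serine and one-carbon genes 17 fell and 2 rose (median -1.36). MTHFD1L, a mitochondrial folate enzyme, was at 85.3, 89.8 and 89.01 CPM in the control and 6.89, 8.33 and 8.08 CPM with tetracycline (log2 change -3.35, SE 0.088). PSAT1 and PHGDH, which make serine, changed by -3.09 and -2.30 log2 units, and the folate carrier SLC19A1 by -3.13 log2 units. In the polyamine list of 12 genes, 8 fell and 3 rose. Genes that use spermidine or recycle its by-product (DHPS, DOHH and MTAP, named after their values were seen) fell as well, and of the antizymes, which block ODC1, OAZ1 fell and OAZ2 rose. ODC1 and AMD1, which together with SRM build polyamines, went from 717 to 171 CPM (log2 change -2.06, SE 0.039) and from 148 to 37.3 CPM (log2 change -1.96, SE 0.058). SAT1 and PAOX, which break polyamines down, went from 11.2 to 83.3 CPM (log2 change 2.79, SE 0.083) and from 2.62 to 7.68 CPM (log2 change 1.28, SE 0.17).

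DNA replication genes fell nearly throughout, and genes of mitosis in part. Of 42 replication genes 41 fell and 0 rose (median -1.14). MCM4, part of the replicative helicase, was at 599.5, 558 and 564 CPM in the control and 167, 182 and 168 CPM with tetracycline (log2 change -1.73, SE 0.043). CDC6, which loads that helicase, was at 179, 176 and 173 CPM in the control and 51.1, 47.04 and 46.6 CPM with tetracycline (log2 change -1.85, SE 0.055). Of 45 mitosis genes 27 fell (60%), 2 of them at least 2-fold, and 8 rose (17.8%), with a median of -0.33. Among all genes 41.9% fell, 16.2% at least 2-fold, and 36.2% rose. CCNB1, the cyclin of mitotic entry, was at 247, 252 and 238 CPM in the control and 142, 140.3 and 135 CPM with tetracycline (log2 change -0.82, SE 0.045), and CDC25B, a phosphatase that activates it, rose by 0.98 log2 units. Values of the groups did not overlap for either gene. Of 30 genes of G1 and S phase control 17 fell (56.7%) and 9 rose (30%), where 41.9% of all genes fell and 36.2% rose. CDK4 went from 173, 178 and 181 CPM to 47.4, 51.3 and 48.9 CPM (log2 change -1.83, SE 0.054), CDC25A from 92.7, 95.3 and 97.6 CPM to 21.5, 21.4 and 20.6 CPM (log2 change -2.12, SE 0.069) and SKP2, which marks the inhibitor p27 for decay, from 127, 124 and 135 CPM to 46.8, 37.4 and 41.5 CPM (log2 change -1.60, SE 0.066). The kinase inhibitors CDKN2D, CDKN1B and CDKN2C rose by 2.15, 1.13 and 1.11 log2 units, with CDKN2D at 3.59, 3.85 and 4.30 CPM in the control and 21.00, 20.3 and 20.7 CPM with tetracycline. Among the other inhibitors of the list, named after their values were seen, CDKN1A rose, CDKN2A fell from 9.58 to 6.31 CPM (log2 change -0.54, SE 0.14) and CDKN1C did not pass the test. Of the cyclin genes of this phase, chosen after their values were seen, CCND2 and CCNE1 changed by -0.14 and -0.34 log2 units and CCND3 by 0.46 log2 units. In bulk RNA, fewer cycling cells and less of these RNAs per cell cannot be told apart.

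Energy metabolism fell at most of its steps. Of 25 genes of glycolysis and glucose uptake 18 fell and 5 rose (median -1.14). LDHA, which turns pyruvate into lactate, was at 1549, 1567 and 1573 CPM in the control and 297, 297 and 285 CPM with tetracycline (log2 change -2.41, SE 0.037). SLC16A1, the lactate carrier, was at 214, 216 and 216 CPM in the control and 26.97, 30.02 and 29.1 CPM with tetracycline (log2 change -2.86, SE 0.058). HK2, PFKM and GPI changed by -2.13, -2.32 and -2.17 log2 units. The glucose carriers went against the enzymes: SLC2A3 was at 6.49, 5.57 and 3.58 CPM in the control and 56.9, 60.3 and 52.05 CPM with tetracycline (log2 change 3.24, SE 0.13) and SLC2A1 rose by 0.70 log2 units. Of 30 genes of the tricarboxylic acid cycle and glutamine use 26 fell and 2 rose, with the amino acid carrier SLC7A5 at 422, 413 and 432 CPM in the control and 57.7, 56.8 and 56.6 CPM with tetracycline (log2 change -2.87, SE 0.046). IDH2 and SLC38A2 rose by 0.40 and 0.77 log2 units.

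Fatty acid synthesis fell at its committed steps. Of 24 fatty acid genes 15 fell and 4 rose (median -0.29). FASN, the fatty acid synthase, was at 847, 892 and 881 CPM in the control and 77.9, 82.8 and 80.7 CPM with tetracycline (log2 change -3.42, SE 0.042). SCD, which makes the first double bond, was at 895, 829 and 847 CPM in the control and 72.1, 73.3 and 77.2 CPM with tetracycline (log2 change -3.51, SE 0.043). ACACA, which makes malonyl-CoA, was at 209, 196 and 212 CPM in the control and 31.3, 30.3 and 35.1 CPM with tetracycline (log2 change -2.64, SE 0.060). All 3 enzymes were lower in each tetracycline library, and SREBF1, the factor that drives them, changed by -1.84 log2 units. ACADVL, which oxidises fatty acids, rose by 0.30 log2 units. In the cholesterol list 20 of 25 genes fell and 2 rose, with DHCR7 changing by -2.90 log2 units and HMGCS1 by -1.50 log2 units, while the factor SREBF2 rose by 0.26 log2 units.

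Nuclear and mitochondrial genes for the mitochondrion moved apart. Of 72 nuclear genes of the respiratory chain 63 fell and 2 rose (median -0.78). CYCS, cytochrome c, was at 348, 336 and 345 CPM in the control and 75.9, 71.5 and 66.1 CPM with tetracycline (log2 change -2.26, SE 0.049). ATP5E and ATP5G2 rose by 0.24 and 0.16 log2 units, and the call of ATP5G2 was lost without the second control library (0.13) and without the first tetracycline library (0.09). All 28 genes of mitochondrial import and folding fell (median -1.77). HSPE1, the partner of HSP60, was at 127, 119.9 and 124 CPM in the control and 18.2, 13.1 and 14.5 CPM with tetracycline. TOMM40, the pore of the outer membrane, was at 280.1, 299 and 290.4 CPM in the control and 42.6, 49.1 and 45.6 CPM with tetracycline. Both were lower in every tetracycline library. Of 15 genes transcribed from mitochondrial DNA 12 rose and 0 fell (median 0.32). MT-CO1 was at 4294, 4051 and 4067 CPM in the control and 6559.7, 7544 and 6551 CPM with tetracycline (log2 change 0.73, SE 0.043). MT-RNR2, a ribosomal RNA, was at 1941, 1776 and 2235 CPM in the control and 4577, 4365 and 3594 CPM with tetracycline (log2 change 1.07, SE 0.14). Summed CPM of the 15 genes was 18105 to 19586 in the control and 25955 to 30102 with tetracycline. Tetracyclines are known to bind the mitochondrial ribosome, and a part of the antibiotic in these changes was not tested.

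Protein folding, splicing, transport and turnover genes fell in nearly all cases. All 26 cytosolic chaperone genes fell (median -1.62). HSP90AB1 was at 4638, 4719 and 4575 CPM in the control and 1019.8, 989 and 1015 CPM with tetracycline (log2 change -2.20, SE 0.033). TCP1, a subunit of the chaperonin that folds actin, was at 292, 307 and 299 CPM in the control and 65.5, 67.9 and 66.2 CPM with tetracycline (log2 change -2.15, SE 0.047). All 40 splicing factors fell (median -1.07), among them SNRPD1 from 313 to 90.4 CPM (log2 change -1.78, SE 0.047). All 38 nuclear transport genes fell (median -0.93), among them XPOT, the exporter of transfer RNA, from 297 to 41.9 CPM (log2 change -2.79, SE 0.051). Of 37 proteasome genes 32 fell and 5 rose (median -0.76). The rising ones named by rule, PSMB9, PSMB10 and PSME1, belong to the immunoproteasome, a form known to be induced by interferon. PSMB9 was at 28.1, 26.3 and 29.5 CPM in the control and 85.6, 86.1 and 76.6 CPM with tetracycline (log2 change 1.53, SE 0.071). PSMB5, the constitutive catalytic subunit, was at 59.8, 64.3 and 67.1 CPM in the control and 31.1, 30.3 and 26.8 CPM with tetracycline (log2 change -1.09, SE 0.074).

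Stress pathways held more falling than rising genes. Of 29 genes of the integrated stress response, which answers to amino acid shortage, 21 fell and 7 rose (median -1.08), with 4 members also in the serine list and 5 in the synthetase list. Of the 29, 3 were listed only through the control libraries, STC2 among them, and 1 only through the tetracycline libraries. STC2 was at 7.66, 5.24 and 4.71 CPM in the control and 0.459, 0.368 and 0.910 CPM with tetracycline (log2 change -2.11, SE 0.20) and SLC7A1 went from 207 to 41.98 CPM (log2 change -2.28, SE 0.058). PPP1R15A, which reverses the pathway's block of translation, rose from 22.4 to 78.9 CPM (log2 change 1.77, SE 0.077), and ATF3 and DDIT4 rose by 1.45 and 0.98 log2 units. Of 23 genes of the unfolded protein response 15 fell and 4 rose. HSPA5, the main chaperone of the endoplasmic reticulum, went from 673 to 313 CPM (log2 change -1.10, SE 0.038), and XBP1 from 179, 186 and 180.2 CPM to 69.8, 59.3 and 59.9 CPM (log2 change -1.52, SE 0.056).

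The labelled cell type was checked on markers. All 8 B cell markers were present and rose (median 1.29), with MS4A1 at 897, 883 and 873 CPM in the control and 2515, 2439 and 2522 CPM with tetracycline (log2 change 1.49, SE 0.034). PAX5 was at 303, 297 and 295 CPM in the control and 644, 680.1 and 665 CPM with tetracycline (log2 change 1.15, SE 0.039). Of 6 plasma cell markers 4 fell and 2 rose, with SDC1 at 12.4, 11.6 and 12.5 CPM in the control and 0.918, 2.45 and 2.93 CPM with tetracycline (log2 change -2.15, SE 0.19) and PRDM1 going from 10.95 to 18.7 CPM (log2 change 0.72, SE 0.11). Of 13 T and NK cell markers 6 had an entry and rose, from a summed CPM of 7.37 to 10.9 to one of 30.8 to 34.4. CD3D, CD5, CD8A, TRBC1, GNLY, KLRD1 and NCAM1 had no entry among the genes tested. CD2, CD4, GATA3 and NKG7 were listed only through the tetracycline libraries, which favours a rise. That leaves CD3E and CD3G as markers above 1 CPM in both groups. Of 9 myeloid markers LYZ, ITGAM and CD68 had an entry and rose, CD68 being listed only through the tetracycline libraries, from a summed CPM of 8.84 to 10.6 to one of 136 to 142. ITGAM was at 5.43, 3.52 and 5.22 CPM in the control and 76.6, 77.1 and 79.6 CPM with tetracycline (log2 change 3.80, SE 0.11). LYZ was at 4.56, 4.91 and 5.42 CPM in the control and 59.7, 61.6 and 54.4 CPM with tetracycline (log2 change 3.32, SE 0.10), while CD14, CSF1R, S100A8, S100A9, MPO and FCGR3A had no entry. Of 10 epithelial and stromal markers 4 had an entry, 2 rose and 1 fell, and their summed CPM went from between 22.5 and 23.3 to between 28.5 and 35.6. COL1A1 went from 2.52, 2.46 and 1.13 CPM to 7.46, 6.98 and 8.69 CPM and PDGFRB from 9.69, 7.70 and 9.21 CPM to 18.2, 23.5 and 25.1 CPM, while EPCAM fell from 10.7, 11.1 and 11.9 CPM to 2.64, 2.08 and 0.808 CPM. The part of other cell types in the rising immune genes described next was not tested.

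The largest rises named by rule were in interferon-stimulated genes. Of 47 measured genes of the interferon list 46 rose, 45 of them at least 2-fold, where 36.2% of all genes rose, with a median change of 3.56. OAS3, IFI35, RSAD2, DDX60 and 6 more were listed only through the tetracycline libraries, which favours a rise. Of the other 37 genes 36 rose and 1 fell, with a median of 3.05. The list's summed CPM was 1398 to 1436 in the control and 8749.7 to 9554 with tetracycline. Its genes encode sensors and blockers of viral RNA that type I interferon switches on through factors such as STAT2 and IRF9, which bind a short GAAA repeat in promoters. The 15 largest rises named by rule were in IFI6, SLFN5, OAS3, IFI44L, MX1, DDX60, HELZ2, EPSTI1, IFIT1, OAS1, XAF1, IFIT2, IFI35, ZBP1 and RSAD2. At most of these the control was below 10 CPM, so the fold rests on few control reads.

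The promoters of 3 of them are shown, because they rose the most among list members that hold 2 copies of GAAA with 2 bases of any kind between them, a pattern of the interferon response element. Each runs from 250 bases before to 10 after the RefSeq start (GRCh38.p14), 5′ to 3′ on the gene's strand, with the matches in capitals. IFI6 (chr1:27672183-27672442, minus strand) encodes a membrane protein that blocks viral replication and cell death. OAS3 (chr12:112938224-112938483, plus strand) makes the messenger that activates RNase L. IFI44L (chr1:78620198-78620457, plus strand) encodes an interferon-induced protein of the cytoplasm.
IFI6: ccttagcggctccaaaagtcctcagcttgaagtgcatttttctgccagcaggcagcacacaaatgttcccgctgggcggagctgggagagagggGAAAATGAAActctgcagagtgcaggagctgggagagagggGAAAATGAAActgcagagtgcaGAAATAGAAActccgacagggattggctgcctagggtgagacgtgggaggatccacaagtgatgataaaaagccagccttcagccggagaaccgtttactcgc
OAS3: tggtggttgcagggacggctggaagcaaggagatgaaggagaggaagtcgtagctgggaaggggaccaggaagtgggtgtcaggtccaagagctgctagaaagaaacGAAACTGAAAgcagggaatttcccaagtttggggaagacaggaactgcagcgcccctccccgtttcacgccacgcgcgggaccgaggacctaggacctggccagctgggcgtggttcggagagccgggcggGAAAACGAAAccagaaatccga
IFI44L: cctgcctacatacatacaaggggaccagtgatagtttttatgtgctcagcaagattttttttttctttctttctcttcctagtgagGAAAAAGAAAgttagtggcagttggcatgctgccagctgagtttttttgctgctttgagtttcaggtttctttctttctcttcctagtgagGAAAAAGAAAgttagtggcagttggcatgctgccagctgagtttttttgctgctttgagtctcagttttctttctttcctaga
The IFI6 window held 3 matches and the other windows 2 each. IFI6 was at 1.07, 1.06 and 1.23 CPM in the control and 184, 185 and 158 CPM with tetracycline (log2 change 6.38, SE 0.10). OAS3 was at 0.291, 0.409 and 0.102 CPM in the control and 51.4, 59.2 and 49.1 CPM with tetracycline (log2 change 5.42, SE 0.14). IFI44L was at 2.52, 2.29 and 2.97 CPM in the control and 140.03, 154 and 152 CPM with tetracycline (log2 change 5.38, SE 0.095). All control libraries were below 3 CPM for these genes and all tetracycline libraries above 49 CPM. The genes were chosen for the size of their rise, and OAS3 was listed only through the tetracycline libraries. The gap therefore follows from the choice. The motif, searched on both strands, was found in 21 of 36 interferon list promoters (58.3%, exact 95% interval 40.8 to 74.5%). It was found in 95 of 1322 promoters (7.19%) of genes that rose at least 2-fold, 40 of 1740 (2.30%) of genes that fell at least 2-fold and 1.84% of genes not called. The share was 2.98% in all tested genes and 3.65% in all promoters of the table. The search for this motif was added after the rise of the list had been seen.

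The genes of interferon signalling itself rose with their targets. MX1, an antiviral GTPase, was at 21.1, 25.5 and 23.6 CPM in the control and 956, 1054 and 922 CPM with tetracycline (log2 change 5.32, SE 0.057). IFIT1, which binds foreign RNA, was at 5.62, 3.44 and 4.71 CPM in the control and 152, 166 and 151 CPM with tetracycline (log2 change 4.83, SE 0.10). Every tetracycline library exceeded every control library for both. The following genes were picked after their values were seen. The factors STAT2, IRF9 and IRF7 went from 21.4 to 179 CPM (log2 change 3.003, SE 0.064), 1.75 to 17.1 CPM (log2 change 2.72, SE 0.15) and 7.06 to 146 CPM (log2 change 4.19, SE 0.082). The receptor genes IFNAR1 and IFNAR2 and the kinase JAK1 rose by 0.53, 0.81 and 1.06 log2 units. SOCS1, a feedback inhibitor of JAK kinases, was at 5.72, 5.73 and 7.26 CPM in the control and 56.2, 53.9 and 50.4 CPM with tetracycline (log2 change 2.92, SE 0.10), and TLR7, a sensor of single-stranded RNA, rose by 1.72 log2 units. The genes IFNB1, IFNA1, IFNL1 and IFNG had no entry among the 13703 genes. MX2 was the 1 list member that fell, from 164, 159 and 161 CPM to 125, 133 and 121 CPM (log2 change -0.35, SE 0.049).

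**Figure D4:**
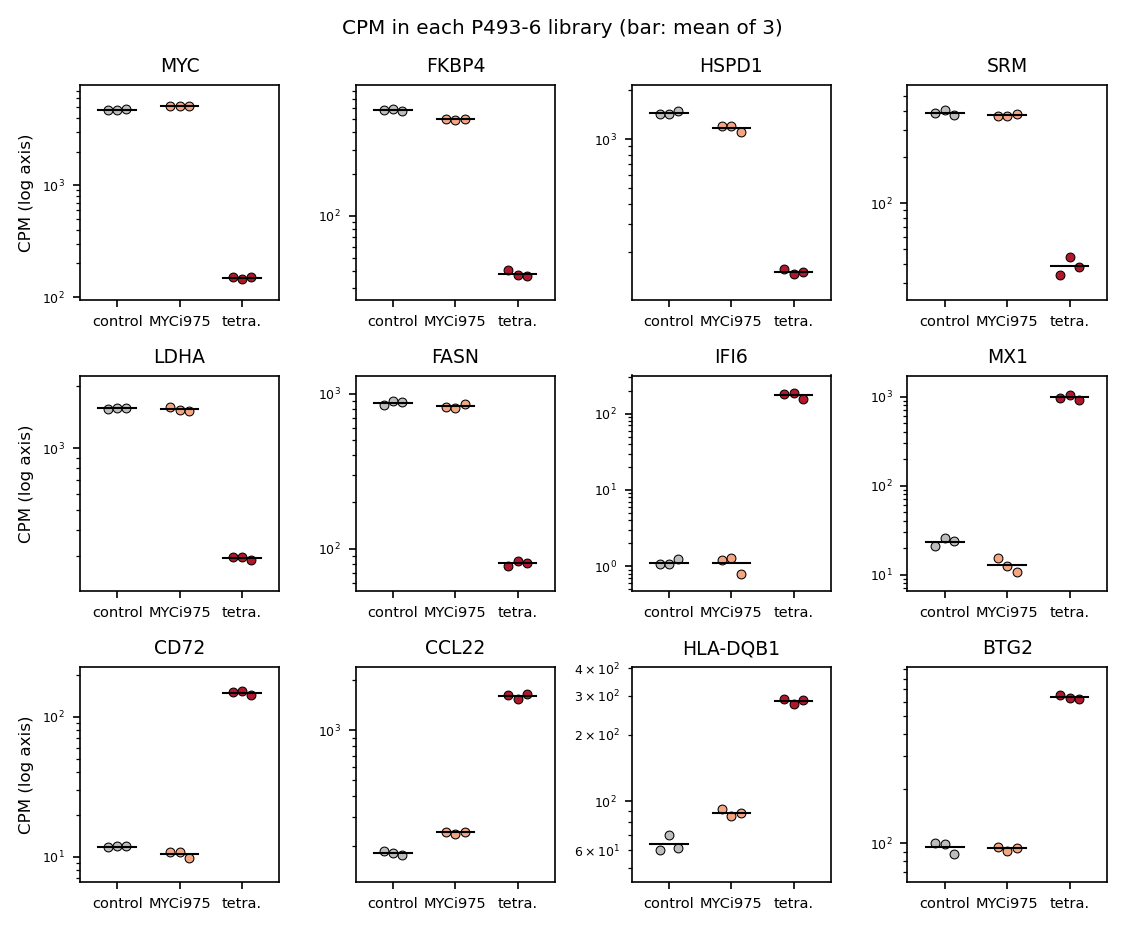
CPM of 12 genes in each of the 9 P493-6 libraries (control, MYCi975 and tetracycline, 3 each) on log axes, with bars at the mean of 3. For each gene the tetracycline libraries stand apart from both other groups, lower in MYC, FKBP4, HSPD1, SRM, LDHA and FASN and higher in the other 6.

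Most genes of the NF-kB list rose. NF-kB is a family of factors that answers to CD40 and the B cell receptor. Of 25 genes 22 rose and 3 fell (median 1.61). Without the 1 gene listed only through the tetracycline libraries, which favours a rise, 21 of 24 rose (median 1.495). TNF was at 1.55, 1.31 and 0.716 CPM in the control and 31.4, 36.1 and 32.6 CPM with tetracycline (log2 change 3.99, SE 0.15). LTB was at 5.53, 5.98 and 3.89 CPM in the control and 66.6, 66.2 and 74.3 CPM with tetracycline (log2 change 3.53, SE 0.11). TRAF1 was at 30.9, 33.1 and 30.5 CPM in the control and 211, 229 and 225 CPM with tetracycline (log2 change 2.78, SE 0.057). The groups did not overlap for these 3 targets. TNFAIP3, which shuts the pathway off, was at 12.2, 10.4 and 12.6 CPM in the control and 74.7, 70.6 and 70.1 CPM with tetracycline (log2 change 2.52, SE 0.085). NFKBIB, which encodes an inhibitor that holds NF-kB in the cytoplasm, fell, as did TRAF2 and TRAF3, and these genes changed by -1.65, -0.65 and -0.36 log2 units.

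Nearly all genes of the list of the B cell receptor complex and its signalling rose. Of 35 genes 34 rose, 22 of them at least 2-fold (median 1.45), and their summed CPM was 4755 to 4975 in the control and 12043 to 12229 with tetracycline. Without the 1 gene listed only through the tetracycline libraries, 33 of 34 rose (median 1.44). CD72, an inhibitory coreceptor, was at 11.7, 11.9 and 11.9 CPM in the control and 149.7, 153 and 143 CPM with tetracycline (log2 change 3.54, SE 0.071). FCRL5, a receptor for immunoglobulin, was at 48.2, 50.03 and 46.96 CPM in the control and 347, 388 and 383 CPM with tetracycline (log2 change 2.92, SE 0.051). CD79B, a signalling chain of the receptor, was at 84.04, 91.6 and 73.5 CPM in the control and 343, 374 and 328 CPM with tetracycline (log2 change 2.06, SE 0.064). Each was higher in all 3 tetracycline libraries. CD180, RASGRP3, FCRL1 and FCRL2 rose by 2.45, 2.71, 2.43 and 2.42 log2 units. CD81, a membrane protein of the receptor complex, was the 1 member that fell (log2 change -0.26, SE 0.049).

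Factors of B cell identity rose in 27 of 32 cases and fell in 3. LMO2, a germinal centre factor, was at 1.26, 0.819 and 1.53 CPM in the control and 23.5, 20.3 and 23.9 CPM with tetracycline (log2 change 3.43, SE 0.15). SPIB was at 84.3, 79.5 and 80.6 CPM in the control and 332, 340.1 and 342 CPM with tetracycline (log2 change 2.04, SE 0.046). The groups did not overlap for these factors. BACH2, POU2AF1 and POU2F2 rose by 1.95, 1.77 and 1.64 log2 units. XBP1, the factor of plasma cell secretion, MYB and TCF3 changed by -1.52, -1.38 and -0.44 log2 units.

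Antigen presentation rose in both classes. Of 19 MHC class II genes 16 rose and 2 fell (median 1.88). HLA-DQB1 was at 60.2, 70.4 and 61.2 CPM in the control and 289, 274 and 288 CPM with tetracycline (log2 change 2.14, SE 0.053). HLA-DMB, which exchanges peptides, was at 23.2, 20.3 and 19.2 CPM in the control and 106, 109.8 and 109 CPM with tetracycline (log2 change 2.32, SE 0.072). CIITA, the coactivator that switches class II genes on, was picked after its values were seen and was at 91.1, 85.3 and 82.9 CPM in the control and 313, 324 and 329 CPM with tetracycline (log2 change 1.89, SE 0.047). RFXAP, part of the RFX complex that CIITA needs, fell from 12.4 to 3.85 CPM (log2 change -1.48, SE 0.15). Of 17 MHC class I genes 15 rose and 2 fell (median 1.06). HLA-E was at 52.6, 52.00 and 47.98 CPM in the control and 457, 473 and 452 CPM with tetracycline (log2 change 3.15, SE 0.048). TAPBP, which holds class I molecules for loading, was at 154, 161 and 160.4 CPM in the control and 498, 500.1 and 498 CPM with tetracycline (log2 change 1.65, SE 0.041). All of these tetracycline libraries were above their controls. CALR and PDIA3, chaperones of the same step, changed by -0.44 and -0.51 log2 units. HLA genes are close relatives, so their counts are uncertain.

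Signals between lymphocytes also rose. Of 20 chemokine and receptor genes 18 had an entry. CXCR5, CCR6, CCL3, CCL4 and CCL5 were listed only through the tetracycline libraries, which favours a rise. The other 13 rose too, with a median of 1.35. CCL22, which attracts T cells, was at 187, 183 and 177 CPM in the control and 1616, 1543 and 1659 CPM with tetracycline (log2 change 3.13, SE 0.039) and made up most of the summed CPM of the list. CCL17, which binds the same receptor, was at 3.39, 4.67 and 4.60 CPM in the control and 53.1, 47.7 and 47.1 CPM with tetracycline (log2 change 3.28, SE 0.11). CCR7, which guides cells to lymph nodes, was at 2.33, 2.13 and 2.05 CPM in the control and 19.97, 19.5 and 20.01 CPM with tetracycline (log2 change 2.72, SE 0.14). The control was below 5 CPM for CCL17 and CCR7 and below 1 CPM in most libraries for CXCR5 and CCL3, which rose by 1.91 and 1.84 log2 units. Of 39 surface genes of costimulation and adhesion 37 rose and 2 fell (median 1.42), with 3 of the rising genes listed only through the tetracycline libraries. CD69, a marker of activation, was at 0.969, 1.06 and 1.33 CPM in the control and 21.6, 22.4 and 20.8 CPM with tetracycline (log2 change 3.42, SE 0.15). ITGB2, the shared chain of leukocyte integrins, was at 15.1, 16.3 and 14.3 CPM in the control and 99.6, 114 and 102 CPM with tetracycline (log2 change 2.71, SE 0.076). CD83 was at 13.6, 12.1 and 10.2 CPM in the control and 56.9, 57.2 and 55.6 CPM with tetracycline (log2 change 2.16, SE 0.092). In these 3 genes the groups did not overlap. Over the same libraries the summed level of the 3 measured myeloid markers rose as given above, and its part was not tested. TNFRSF8, also known as CD30, fell from 83.4, 88.9 and 84.2 CPM to 21.6, 25.8 and 22.3 CPM (log2 change -1.84, SE 0.074), and CD38 changed by -0.42 log2 units.

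Most genes listed as linked to rest in lymphocytes rose. Of 34 genes of the FOXO and KLF list 29 rose and 2 fell (median 1.17). Without the 2 genes listed only through the tetracycline libraries, 27 of 32 rose (median 0.996). TXNIP, which limits glucose uptake, was at 38.2, 33.5 and 38.4 CPM in the control and 256, 267 and 253 CPM with tetracycline (log2 change 2.79, SE 0.056). BTG2, which slows division, was at 100.04, 98.8 and 87.9 CPM in the control and 649.9, 626 and 623 CPM with tetracycline (log2 change 2.72, SE 0.046). KLF2, a factor of resting lymphocytes, was at 54.2, 55.3 and 52.8 CPM in the control and 260.1, 281 and 285 CPM with tetracycline (log2 change 2.33, SE 0.051). Each rose in all 3 tetracycline libraries. ZFP36L1, which destabilises messenger RNA, rose by 2.41 log2 units. EGR1, which is also known as an immediate early gene, rose by 2.85 log2 units. IL7R changed by -0.65 log2 units and ARRDC4, a relative of TXNIP, by -0.63 log2 units.

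Regulators of cell death changed on both sides. Of 26 genes of the BCL2 family and its partners 17 rose (65.4%) and 6 fell (23.1%), with a median of 0.58. Among all genes 36.2% rose and 41.9% fell. Without the 1 gene listed only through the tetracycline libraries, 16 of 25 rose (median 0.53). The guards BCL2A1, BCL2 and BCL2L1 all rose. BCL2A1 was at 4.85, 5.98 and 5.01 CPM in the control and 50.2, 45.6 and 46.1 CPM with tetracycline (log2 change 2.95, SE 0.11). BCL2 was at 3.68, 5.32 and 4.60 CPM in the control and 18.8, 22.4 and 20.4 CPM with tetracycline (log2 change 1.97, SE 0.13). BCL2L1 was at 22.5, 25.1 and 18.2 CPM in the control and 87.9, 85.3 and 88.4 CPM with tetracycline (log2 change 1.96, SE 0.082). The triggers BIK and HRK rose by 1.71 and 1.59 log2 units, and APAF1, which activates caspases, by 1.45 log2 units. BNIP3, BID and BIRC5 changed by -1.38, -0.78 and -0.71 log2 units. Of 25 p53 targets 18 rose and 3 fell (median 0.50), and 3 of them are also in the FOXO and KLF list. TP53INP1 was at 23.3, 26.8 and 27.1 CPM in the control and 128, 123 and 136 CPM with tetracycline (log2 change 2.28, SE 0.068). ZMAT3 was at 100.2, 100.2 and 99.1 CPM in the control and 302, 307 and 325 CPM with tetracycline (log2 change 1.63, SE 0.045), while TRIAP1 changed by -1.49 log2 units and AEN by -0.98 log2 units. Of 41 lysosome and autophagy genes 24 rose and 7 fell, with the protease CTSZ going from 47.8 to 166 CPM (log2 change 1.77, SE 0.056) and the glycogen enzyme GAA from 69.9 to 24.95 CPM (log2 change -1.45, SE 0.076). The shares of the lysosome and autophagy list were 58.5% and 17.1%. Without the 1 gene listed only through the tetracycline libraries, 23 of 40 lysosome and autophagy genes rose.

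Chromatin genes were mixed. Of 32 genes of DNA methylation and chromatin 17 rose (53.1%) and 9 fell (28.1%), where 36.2% of all genes rose and 41.9% fell. TET2, which removes DNA methylation, was at 44.6, 43.9 and 38.9 CPM in the control and 116, 117 and 116 CPM with tetracycline (log2 change 1.44, SE 0.062). UHRF1, which copies it at replication, was at 149.96, 144 and 154 CPM in the control and 57.96, 63.95 and 57.8 CPM with tetracycline (log2 change -1.30, SE 0.056). These genes of opposite action moved in opposite directions, and KDM1A and SMARCA4 changed by -1.47 and -1.34 log2 units. Of 23 measured histone genes 11 rose (47.8%) and 7 fell (30.4%), not far from the shares of all genes. Their near-identical copies make these counts uncertain. Among them 2 were listed only through the tetracycline libraries, and 1 of these rose. H1FX was at 78.3, 74.9 and 75.4 CPM in the control and 182, 186 and 176 CPM with tetracycline (log2 change 1.24, SE 0.050). H2AFZ was at 252, 258 and 264 CPM in the control and 94.5, 93.2 and 86.4 CPM with tetracycline (log2 change -1.49, SE 0.048).

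Genes with the most reads moved too, which bears on their use as a reference. ACTB was at 7853, 8119 and 8305 CPM in the control and 19916, 19980.00 and 19549 CPM with tetracycline (log2 change 1.29, SE 0.029). ACTG1 was at 3739, 3910.1 and 3896 CPM in the control and 9073, 9046 and 8949 CPM with tetracycline (log2 change 1.23, SE 0.030). RN7SK, a small nuclear RNA that restrains transcription elongation, was at 11487, 12232 and 12054 CPM in the control and 20655, 20402 and 19762 CPM with tetracycline (log2 change 0.77, SE 0.029), and EEF1A1 rose by 0.31 log2 units. Each of these was higher in all tetracycline libraries. PABPC1 changed by -0.40 log2 units. Of 16 common reference genes 6 rose (37.5%) and 10 fell (62.5%), where 36.2% of all genes rose and 41.9% fell. HPRT1 went from 106 to 33.4 CPM (log2 change -1.65, SE 0.068) and TFRC from 445 to 176 CPM (log2 change -1.34, SE 0.044), and B2M rose by 0.97 log2 units.

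Genes of each class also differed in level and kind. The median control level was 49.4 CPM in genes that fell at least 2-fold, 5.95 CPM in genes that rose at least 2-fold and 6.47 CPM in genes not called. The control level enters the change itself, so this order is a description. Also, 838 genes that rose by any amount were listed only through the tetracycline libraries, so their control level was low by the listing rule. Protein-coding genes made up 91.7% of genes that fell at least 2-fold, 84.8% of genes that rose at least 2-fold and 67.2% of genes not called.

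The response to tetracycline was set against that to 6 µM MYCi975 in the same line, with the same 3 control libraries in both comparisons. The direct contrast of the treated groups (limma, 9 libraries, 12860 genes) called 4356 genes (33.9%) higher and 5438 (42.3%) lower with tetracycline. MYC was at 5138, 5084 and 5132 CPM with MYCi975, above each control library, against 152, 145 and 149.8 CPM with tetracycline, a difference of -5.09. Of the 58 MYC targets 56 were lower with tetracycline and 0 higher (median difference -2.14). In the interferon list 37 of the 38 genes measured for both treatments were higher with tetracycline (median difference 3.22), and IFI6 was at 1.20, 1.28 and 0.799 CPM with MYCi975. The integrated stress response list was lower with tetracycline in 25 of 29 genes, with STC2 at 16.1, 17.1 and 18.97 CPM with MYCi975 and 0.459, 0.368 and 0.910 CPM with tetracycline. For mitosis genes the contrast was near even, with 18 higher and 15 lower. Dose and solvent differ between the treatments, and no other dose was measured.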

How the data were processed

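Messenger RNA of P493-6 cells was sequenced after capture of exons with a stranded kit from 50 ng of total RNA, per the labels' protocols. Per the submitters' processing notes, the tools were STAR, HTSeq and edgeR and the build hg38, with tool versions and annotation not given in the sources used here. Values were deposited by the authors as CPM, with 3 control and 3 tetracycline columns, their log2 fold change, adjusted p-values, marks for called genes (other columns) and a gene width in bases. All genes in the file exceed 1 CPM in 2 or more libraries, and lower ones were not analysed here. CPM were whole multiples of 1 read for 100% of values (tolerance 0.001 reads). The listed genes held over 99% of each library's reads.

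From the deposited CPM, log2(CPM + 1) was tested with limma 3.58.1 (trend and robust, two-sided, R 4.3.3) over 13703 genes at a Benjamini-Hochberg adjusted p below 0.05. The recovered reads were tested with edgeR 4.0.16 (quasi-likelihood, TMM) and DESeq2 1.42.0. The authors' deposited table marks as higher 4985 genes and as lower 5032, at an adjusted p below 0.01, of which 9870 have a call of the same sign here and 0 of the opposite sign. A simulation at the depths of these libraries changed 200 of 13703 genes, 50 per size. With limma, 30% of simulated log2 changes of 0.25 were found, 52% of those of 0.5, 76% of those of 1 and 94% of 2. It made 12 false calls. In these data 78.1% of genes were called, so the adjusted threshold differs and this recovery need not hold for them. At 1 CPM a gene has about 8.16 to 12.2 reads, so values of a few CPM are imprecise.

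The members and the 48 gene lists were chosen with earlier results of these data known, so the counts by list are descriptions. Lists overlap in part. Named genes follow a rule: the MYC network; the 15 largest called changes per direction among genes of mean CPM 5 or more whose groups lie apart; the 5 called genes with the most reads per direction; and, in each list, the 6 most changed called members and 3 that went against its majority. Promoter sequences came from RefSeq (GRCh38.p14), matched by symbol for 9843 genes. Of 395 entries without a symbol 131 were named from a reference table. 6 columns of PC3 values were not used. Replicates differed by more than counting error (chi-square per gene 2.08 to 6.09). Some genes that the rule names are not reported here.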

Additional observations from a re-analysis of the deposited data

How the results depend on the processing

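The counts of genes that rose or fell were computed under 15 other settings, and 356 of 361 named genes kept direction and call under every setting that could test them. The exceptions were ATP5G2, MLXIP, RPL35, RPL5 and ZFAS1. Counts by list stayed within 1.5 times for 45 of 48 lists. Genes at least 2-fold higher numbered 1068 with a pseudocount of 5 in place of 1. More genes were at least 2-fold lower than higher (2219 and 1849), and this order turned with TMM factors on CPM (1991 and 2039), edgeR with TMM (2403 and 2670) and DESeq2 (2368 and 2600). With genes of a mean CPM of at least 5 alone, 9 chemokine genes, 2 T and NK cell markers and 1 epithelial or stromal marker rose, since fewer were tested. With all 9 P493-6 libraries, 3 T and NK cell markers rose. Leaving out each of the 6 libraries in turn gave 4726 to 4875 genes higher and 5483 to 5619 lower, and leaving out each treated library gave 9404 to 9558 genes in the contrast with MYCi975. TMM scaling moved the share of calls that rose from 46.3% to 50.1%. With the replicate number as a block, 4934 genes rose and 5721 fell, and no named gene changed its call. Replicate numbers did not pair the libraries: deviations of same-numbered libraries correlated at -0.04, 0.01 and -0.05, and 1 of 3 tetracycline libraries correlated best with its own number. In the last 150 bases of the promoter window the E-box share was 10.7% in genes that fell at least 2-fold and 3.93% in genes that rose at least 2-fold, and that of the spaced GAAA pair 1.21% and 4.24%. With 8162582 to 12212555 reads per library, genes near 1 CPM rest on about 10 reads each, which limits the fold of genes low in 1 group.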

Other observations

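The families and genes below were picked after their values were seen. Of 33 immunoglobulin genes 23 rose and 1 fell, and 12 of the 33 were listed only through the tetracycline libraries, which favours a rise. Of these 12 genes 10 rose. Of the other 21 genes 13 rose. IGHM, the heavy chain of IgM, was at 2124, 2146 and 2203 CPM in the control and 3379, 3553 and 3452 CPM with tetracycline (log2 change 0.68, SE 0.032). IGHA1 was at 65.3, 60.5 and 53.8 CPM in the control and 201, 209 and 225 CPM with tetracycline (log2 change 1.81, SE 0.059). Variable genes share sequence, so reads may be split among them. All 6 APOBEC3 genes, which encode deaminases that act on viral DNA, rose, with APOBEC3F at 7.08, 7.21 and 6.75 CPM in the control and 31.6, 28.4 and 32.1 CPM with tetracycline (log2 change 1.98, SE 0.11). Of 6 LILR genes, receptors known mainly from myeloid cells, 5 were listed only through the tetracycline libraries, which favours a rise. LILRB4, the other one, was at 47.5, 44.8 and 48.5 CPM in the control and 124, 134 and 122 CPM with tetracycline (log2 change 1.41, SE 0.059).

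RNase P and RNase MRP cut transfer and ribosomal RNA precursors. Genes with RPP names, most of which encode protein subunits of these enzymes, moved apart from the RNAs of the enzymes. Subunits with other names are not given here. All 7 RPP genes fell (median -1.08), with RPP25 at 92.2, 99.1 and 98.01 CPM in the control and 23.2, 24.6 and 19.8 CPM with tetracycline (log2 change -2.05, SE 0.074). RPPH1, the RNA of RNase P, rose from 1471 to 1893 CPM (log2 change 0.36, SE 0.036) and RMRP from 3529 to 4436 CPM (log2 change 0.33, SE 0.038). Of 37 DDX helicase genes 28 fell and 6 rose. Of 423 ZNF genes 183 rose and 115 fell, and of 446 lincRNA genes 178 rose and 102 fell. Among all genes 36.2% rose and 41.9% fell, so the share of lincRNA genes that rose is close to the general one. A smaller share of lincRNA genes fell than of all genes. The capture kit is made for exons of coding genes, so levels of noncoding RNA are less certain.

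Host genes of microRNAs went both ways. MIR17HG, host of a cluster known as a MYC target, was at 21.5, 21.5 and 18.8 CPM in the control and 2.98, 2.94 and 3.23 CPM with tetracycline (log2 change -2.41, SE 0.13). MIR155HG was at 8.43, 9.33 and 9.92 CPM in the control and 24.7, 24.6 and 26.98 CPM with tetracycline (log2 change 1.37, SE 0.11). MIR223HG was at 0.969, 0.328 and 0.716 CPM in the control and 11.9, 12.9 and 16.2 CPM with tetracycline (log2 change 3.14, SE 0.18). All 3 control values of MIR223HG were below 1 CPM, so it was listed only through the tetracycline libraries, which favours a rise. MALAT1 rose from 2481 to 6380.1 CPM (log2 change 1.36, SE 0.060) and NEAT1 from 40.6 to 119 CPM (log2 change 1.53, SE 0.090).

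Some genes had 0 reads in all 3 control libraries, so they were listed only through the tetracycline libraries and had to be higher there. CXCR1 was at 1.95, 2.08 and 2.02 CPM and GIMAP7 at 1.38, 1.35 and 1.11 CPM with tetracycline, at least 21.7-fold and 13.8-fold higher than the 3 reads over the control group (0.0929 CPM) that a count of 0 allows.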
